A study of Paraphaeosphaeria sporulosa with 23 samples.

Results

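In 1682 places on the Paraphaeosphaeria sporulosa genome, 2 neighbouring genes pointed away from each other with no more than 500 bases between them. These divergent pairs were found by ordering the 15164 genes of the deposited count table along their scaffolds and taking consecutive genes of which the left lay on the minus strand and the right on the plus strand, with 0 to 500 bases between them. They were 11.1% of the 15128 consecutive gene pairs and 42.04% of the 4001 divergent ones, and they held 3364 genes, 22.2% of all. The choice used positions and strands only, and no measured level.

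In a divergent pair the starts of both genes face each other, so the stretch between them holds the upstream region of each, and in a short gap a single promoter region can serve both. Fungal genomes are compact and hold many such pairs. Known examples are GAL1 and GAL10 of Saccharomyces cerevisiae, whose products break down galactose, and niiA and niaD of Aspergillus nidulans, which serve nitrate use and share their control region. Other divergent neighbours are known to be controlled independently of each other.

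Paraphaeosphaeria sporulosa is a filamentous fungus, and strain AP3s5-JAC2a was grown in still flasks of yeast extract medium before part of the flasks received sodium selenite, a salt of selenium(IV). Messenger RNA of whole cultures was sequenced in 5 groups: cultures with 0.1 mM selenite for 1 day (5 libraries), controls without selenite at day 1 (6 libraries), cultures with 0.1 mM selenite for 6 days (4 libraries), controls at day 6 (5 libraries) and controls at day 0 (3 libraries). All came from the same strain, a 14-day preculture and 18 days of growth before day 0. Nothing in the labels ties replicates to separate flasks, and the p-values therefore measure variation among these libraries, some of it possibly technical.

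Each library had between 23282564 and 32681888 reads in genes, so that 1 read was worth 0.0306 to 0.0430 CPM (read counts scaled to a common total). Levels below are CPM divided by a TMM factor, called scaled CPM, and changes are differences of log2(scaled CPM + 0.5) tested with limma over all genes at once. Calls used a Benjamini-Hochberg adjusted p under 0.05. Of the 3364 genes in divergent pairs, 3210 had enough reads to be tested (95.4%, against 90.2% of all genes), and 1551 pairs had both genes tested, 108 had 1 and 23 had neither. Control replicates 1 and 3 of day 6 stood apart from the other controls of that day, and counts of pairs, and named changes whose call they decide or whose size they move by over 1.5 times, are also given without them. Control replicate 1 of day 0 also stood apart from the other 2 of its group, with a TMM factor of 1.55 against 1.07 and 1.03. Comparisons with day 0 rest on these 3 libraries. In whole cultures, fewer cells that express a gene and less RNA per cell cannot be told apart.

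The gaps were short even within the limit. Their quartiles were 122, 191 and 318 bases, and 611 of the 1682 pairs (36.3%) had a gap of 101 to 200 bases. Among pairs on the same strand (tandem) with gaps of 0 to 500 bases the share in that range was 22.2%, and among pairs that point at each other (convergent) it was 24.2%. A further 269 divergent pairs had gaps of 0 to 100 bases. The pairs lay on 26 of the 36 scaffolds. Of the 3364 genes, 3302 carried a RefSeq locus tag, all of them in the RefSeq table of the assembly Parsp1 and 3299 with the same start, and the other 62 carried STRG names. RefSeq listed 3287 of the tagged genes as protein coding, 14 as tRNA genes and 1 as a tRNA pseudogene. The tables used here give no product names, so the genes below go by their identifiers and no role is assigned to them.

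**Figure D1:**
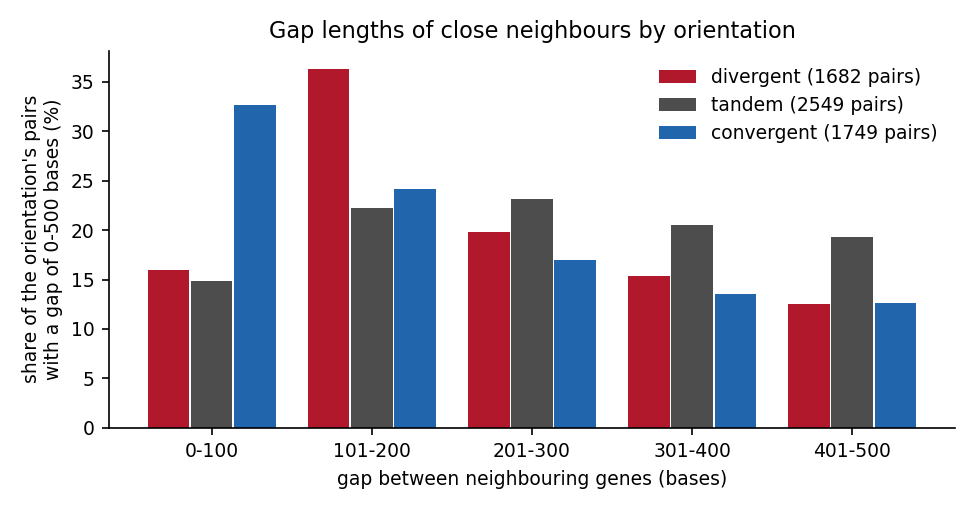
Gap lengths of neighbouring genes with gaps of 0 to 500 bases. Bars show, for each orientation, the percentage of its 0 to 500 base pairs in each range of gap length in bases. The divergent bars peak at 101 to 200 bases with 36.3% of pairs.

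Genes in these pairs were expressed at higher levels than the rest. Per kilobase of exon, their median level over the 5 groups was 12.9 scaled CPM per kb, against 7.73 for tandem pairs of the same gap range, 6.08 for convergent pairs and 6.76 over genes of all consecutive pairs. Divergent pairs further apart lay below that, with 5.80 scaled CPM per kb at gaps of 501 to 1000 bases and 3.88 at 1001 to 2000 bases. Single-exon genes were 24.4% of members and 26.6% of all genes, and median exon length was 1402 against 1300.5 bases. The levels of the left and right gene were weakly related across the 1551 tested pairs. Their log2 levels per kb had a Pearson r of 0.32, against 0.27 for tandem, 0.14 for convergent and 0.21 for all consecutive pairs, and 60.2% of divergent pairs lay within 4-fold of each other, against 50.6% of all pairs. These correlations share libraries and scaling, and no test between kinds of pairs was made here or below. Together the member genes took 23.5 ± 0.92% of reads in selenite cultures at day 1 (SD, n = 5), against 24.4 ± 0.76% in controls of that day (n = 6). At day 6 they took 24.9 ± 1.91% with selenite (n = 4), against 25.1 ± 2.47% without (n = 5), and at day 0 24.5 ± 0.05% (n = 3). A large part of these shares came from 1 member, CC84DRAFT_1180339, with a mean of 59730 scaled CPM over the 5 groups. That gene rose by 5.54 on the log2 scale in controls of day 1 relative to day 0. Shares without it were not computed, so similar shares do not show that the other members held theirs.

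After a day with selenite, many more of these genes were lower than higher. Of the 3210 tested members, 656 rose and 1326 fell, which is 61.7% called against a background of 62.5% over all 13676 tested genes. Calls over all genes were split almost evenly, with 30.8% higher and 31.7% lower. Among members 41.3% were lower and 20.4% higher. The median log2 change of members was −0.32, against −0.02 over genes of all consecutive pairs, 0.03 for tandem and 0.02 for convergent pairs of the same gap range. Per kb, the median member level was 9.18 scaled CPM in selenite cultures and 12.7 in controls of day 1, whereas over all genes it was 5.70 with selenite and 4.74 without. In each of the 5 selenite libraries the median change of members lay below that of all tested genes, with differences of −0.33 to −0.22 on the log2 scale (mean −0.28 ± 0.04, SD, n = 5, each library set against the mean of the same 6 controls).

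More members fell than rose under each scaling tried, but the counts moved. Scaling by library size alone moved the median of all tested genes by −0.28, and 421 members were then higher and 1654 lower, against 3146 and 5353 over genes of all pairs. With DESeq2's size factors that median moved by 0.14, and 777 members were higher and 1167 lower, against 4693 and 3786. The member median minus that of all tested genes was −0.35 with library size alone, −0.28 with DESeq2's factors and −0.30 with TMM. Since members were more highly expressed, they were also compared with other genes of like level, in 4 classes of all tested genes, split at the quartiles of mean scaled CPM. In the class between 2.48 and 13.2 scaled CPM, the median log2 change was −0.25 over 731 members and 0.27 over 2688 other genes. Between 13.2 and 48.6 scaled CPM it was −0.58 over 1034 members and −0.26 over 2385 others, and above 48.6 it was −0.49 and −0.32. In the lowest class the medians were 0.12 and 0.46, so members lay below the others in all 4 classes. The classes are wide, the highest reaching 66753 scaled CPM, and the means that set them include the selenite libraries. The part of level in the difference was not tested.

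The fall varied with the gap and was deepest in the commonest range. Genes in divergent pairs had a median log2 change of −0.32 at gaps of 0 to 100 bases, −0.47 at 101 to 200, −0.28 at 201 to 300, −0.19 at 301 to 400 and −0.17 at 401 to 500 bases. Beyond the limit it was −0.13 at 501 to 1000, −0.06 at 1001 to 2000 and −0.13 at gaps over 2000 bases. In the range of 101 to 200 bases, 555 of 1198 genes fell (46.3%) and 209 rose (17.4%). Tandem and convergent pairs had medians between −0.06 and 0.15 in every range of gap. Levels followed the gap as well: the median was 27 scaled CPM at 101 to 200 bases and 14.2 at 401 to 500, and the part of level in this order was not tested.

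**Figure D2:**
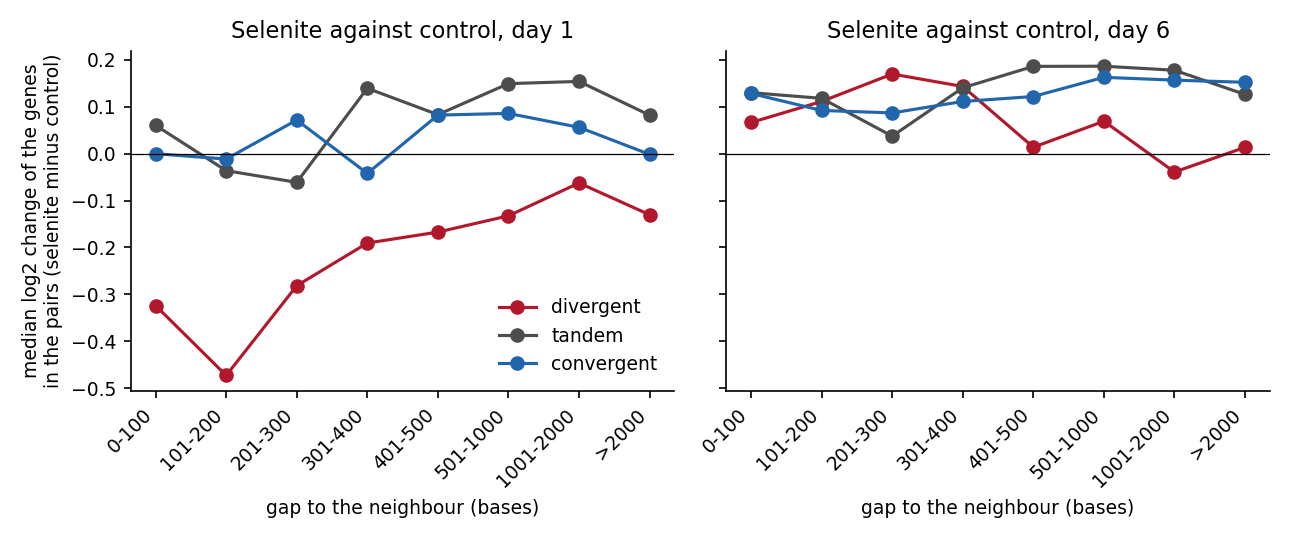
Median log2 change with selenite against the gap to the neighbour, for genes of divergent, tandem and convergent pairs at day 1 (left) and day 6 (right). Each point is the median over the tested genes of the pairs in that range of gap in bases. At day 1 the divergent line lies lowest, at −0.47 for 101 to 200 bases.

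The genes of a pair often fell together. At day 1 both genes were called in the same direction in 443 of the 1551 pairs (28.6%, against 25.2% of all 12572 tested consecutive pairs). Both fell in 337 pairs (21.7%, background 12.6%) and both rose in 106 (6.83%, background 12.6%). Single members were also called lower more often, and higher less often, than all genes. The part of such a lean of single genes in the joint counts, here and below, was not tested. They were called in opposite directions in 171 pairs (11.0%, background 16%). Where both were called, 72.1% went the same way, against 61.5% for tandem, 58.7% for convergent and 61.1% for all pairs. With a change of at least 2-fold asked of each gene, 63 pairs were both higher, 163 both lower and 64 opposite. The share of pairs with the same direction moved with the scaling. It was 82.2% with library size alone and 68.3% with DESeq2's factors.

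Across pairs, the log2 changes of left and right gene had a Pearson r of 0.33 and a Spearman rho of 0.28, as a description of 1551 pairs measured in the same libraries. With each selenite library taken singly, r was 0.30 ± 0.02 (SD, n = 5). Tandem pairs had 0.28, convergent pairs 0.11 and all pairs 0.21, and divergent pairs with gaps of 501 to 1000 bases 0.21. Moving together was far from general. The ratio between the genes, tested in its own limma fit over all consecutive pairs, changed in 870 pairs (56.1%, background 61.9%), and in 694 pairs (44.7%) just 1 gene was called. Of the 443 pairs called in the same direction, 256 (57.8%) had no called change of ratio. The median distance between the changes of the 2 genes was 0.90 on the log2 scale over all 1551 pairs, against 1.24 for all consecutive pairs.

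**Figure D3:**
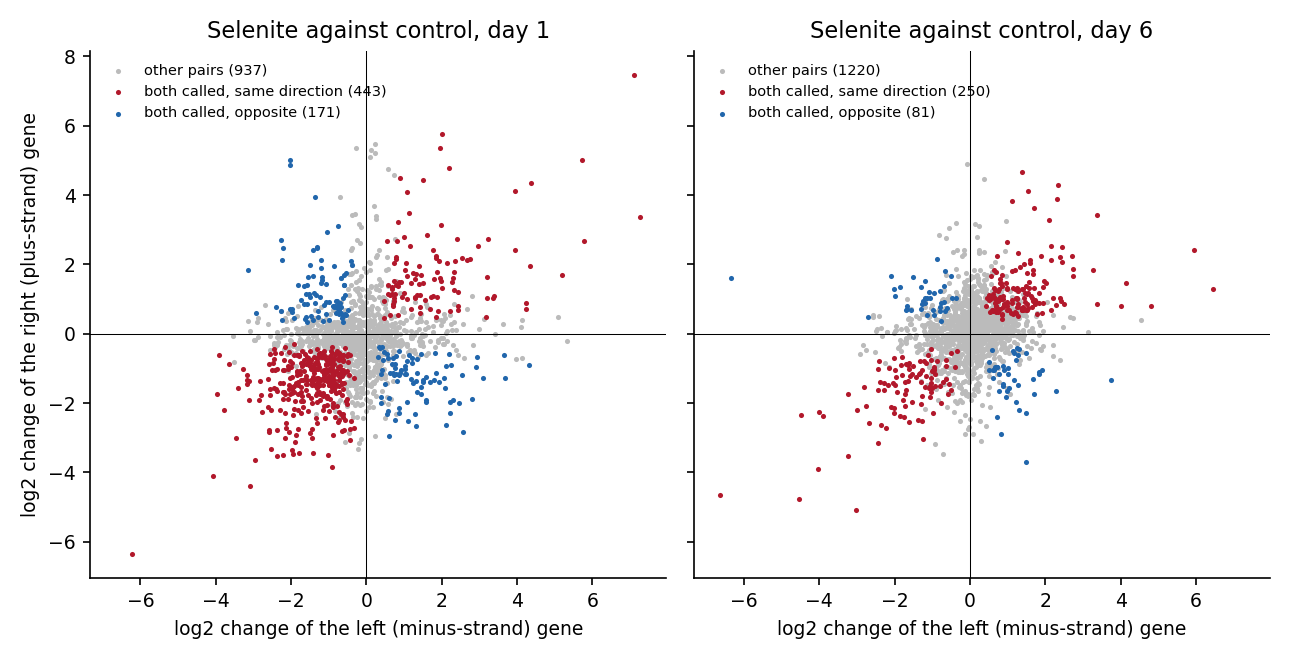
Log2 change with selenite of the right gene against that of the left gene in the 1551 divergent pairs with both genes tested, at day 1 (left) and day 6 (right). At day 1 the 443 pairs called in the same direction crowd the lower left, and 171 pairs were called in opposite directions.

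The pairs in which both genes rose most at day 1 were chosen by the smaller change of the pair, among those whose groups do not overlap. Pairs named below for joint or opposite calls in a selenite or control comparison were chosen alike. Their lack of overlap there comes from that choice. CC84DRAFT_363273 and STRG.8835 lie on NW_017253372.1, at 861910 to 864206 and 864423 to 865770, with a gap of 216 bases. CC84DRAFT_363273 had 883, 869, 535, 655 and 732 scaled CPM in the 5 selenite libraries of day 1, against 1.93 to 7.0, with a median of 5.12, in the 6 controls. STRG.8835 had 145, 182, 77.5, 85.2 and 86.7 scaled CPM with selenite and 0 to 0.493, with a median of 0.0700, without. Every selenite library was far above every control in both genes, and 3 controls had no read of STRG.8835. Their log2 changes were 7.11 ± 0.30 (SE, adjusted p = 4.73e-16) and 7.47 ± 0.30 (SE, adjusted p = 2.21e-16). The change of STRG.8835 depends on the pseudocount, with 9.20 for a pseudocount of 0.1 and 5.70 for 2. With the pseudocount of 0.5, the ratio of the genes had a change of 0.36 ± 0.38 (SE, adjusted p = 0.423). CC84DRAFT_363273 changed by 7.23 for a pseudocount of 0.1 and 6.73 for 2, so which gene rose more depends on the pseudocount. With edgeR the changes were 7.18 in CC84DRAFT_363273 and 9.78 in STRG.8835. At day 6 both were still higher with selenite, by 2.32 (adjusted p = 2.49e-06) and 3.89 (adjusted p = 6.89e-10). The difference between the days, day 6 minus day 1, was −4.79 (adjusted p = 1.80e-08) in CC84DRAFT_363273 and −3.59 (adjusted p = 8.58e-07) in STRG.8835.

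CC84DRAFT_1089173 and CC84DRAFT_1163470, on NW_017253363.1, at 1887140 to 1888108 and 1888506 to 1889976, with a gap of 397 bases, rose at both days. CC84DRAFT_1089173 reached 2735, 2785, 1509.7, 1512 and 2354 scaled CPM in selenite cultures of day 1, against 28.6 to 55.5, with a median of 38.6, in controls. CC84DRAFT_1163470 had 189.6, 199.7, 222, 187 and 209.9 with selenite and 4.34 to 6.68, with a median of 5.83, without. The groups were wide apart in both genes. The log2 changes were 5.72 ± 0.25 (SE, adjusted p = 1.33e-15) and 5.01 ± 0.27 (SE, adjusted p = 5.26e-14), and at day 6 3.37 ± 0.28 (SE, adjusted p = 4.60e-10) and 3.41 ± 0.30 (SE, adjusted p = 1.41e-09). In controls of day 1 relative to day 0, CC84DRAFT_1089173 rose by 3.20 (adjusted p = 2.29e-08) and the log2 change of CC84DRAFT_1163470 was 0.35 (adjusted p = 0.462), so without selenite only the left gene was called. In CC84DRAFT_1139283 and CC84DRAFT_1237463, a pair with a gap of 368 bases, the changes at day 1 were 4.36 ± 0.47 (SE, adjusted p = 1.36e-08) and 4.34 ± 0.39 (SE, adjusted p = 5.17e-10). These depend on the pseudocount, with 5.01 and 6.08 for 0.1, and 3.32 and 2.75 for 2. CC84DRAFT_1237463 averaged only 3.76 scaled CPM over the 5 groups. The selenite libraries of day 1 held 38.4, 93.3, 11.9, 17.8 and 18.7 scaled CPM of CC84DRAFT_1139283, against 0.148 to 2.17, with a median of 0.942, in controls.

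The deepest joint fall was that of CC84DRAFT_1203915 and CC84DRAFT_1162499, on NW_017253362.1, at 1997887 to 1999741 and 1999991 to 2001314, with a gap of 249 bases. CC84DRAFT_1203915 had 0, 0.546, 0.951, 0 and 0.594 scaled CPM in selenite cultures of day 1, against 24.9 to 95.6, with a median of 73.5, in controls. CC84DRAFT_1162499 had 0.892, 1.09, 3.91, 2.19 and 2.97 with selenite and 104 to 317, with a median of 214, without. No selenite library came near the lowest control in either gene. The log2 changes were −6.23 ± 0.46 (SE, adjusted p = 1.88e-11) and −6.35 ± 0.28 (SE, adjusted p = 1.58e-15), and at day 6 they were −6.63 ± 0.51 (SE, adjusted p = 1.39e-10) and −4.64 ± 0.31 (SE, adjusted p = 1.06e-11). With 2 of 5 selenite libraries of day 1 and 2 of 4 of day 6 at 0, the change of CC84DRAFT_1203915 depends on the pseudocount, −7.51 for 0.1 and −4.75 for 2 at day 1. In the controls the pair rose over time, by 3.12 (adjusted p = 1.14e-04) and 1.29 (adjusted p = 0.00468) at day 1 relative to day 0.

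In CC84DRAFT_157955 and CC84DRAFT_1077568, on NW_017253360.1, at 4279389 to 4281356 and 4281785 to 4283006, with a gap of 428 bases, the falls at day 1 were nearly equal. CC84DRAFT_157955 had 3.70, 2.18, 1.06, 0.298 and 1.66 scaled CPM with selenite, against 23.8 to 46.8, with a median of 31.7, without, and CC84DRAFT_1077568 had 2.29, 1.02, 4.49, 0.995 and 2.02 with selenite, against 34.3 to 50.5, with a median of 40.8, without. The log2 changes were −4.07 ± 0.34 (SE, adjusted p = 1.50e-10) and −4.12 ± 0.44 (SE, adjusted p = 1.20e-08), the groups did not overlap, and the change of ratio was −0.05 ± 0.39 (SE, adjusted p = 0.927). Both genes were also higher in controls of day 1 than at day 0, by 1.64 (adjusted p = 0.00295) and 2.81 (adjusted p = 2.07e-04). CC84DRAFT_1160432 and CC84DRAFT_1110443, with a gap of 141 bases, fell by different amounts, −3.08 ± 0.41 (SE, adjusted p = 3.70e-07) and −4.38 ± 0.53 (SE, adjusted p = 7.64e-08), and the ratio changed by −1.30 ± 0.36 (SE, adjusted p = 0.00275). At day 6 their changes were −0.27 (adjusted p = 0.653) and −0.61 (adjusted p = 0.400). Without control replicates 1 and 3 of day 6 these were −0.95 (adjusted p = 0.0601) and −1.69 (adjusted p = 0.00818).

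**Figure D4:**
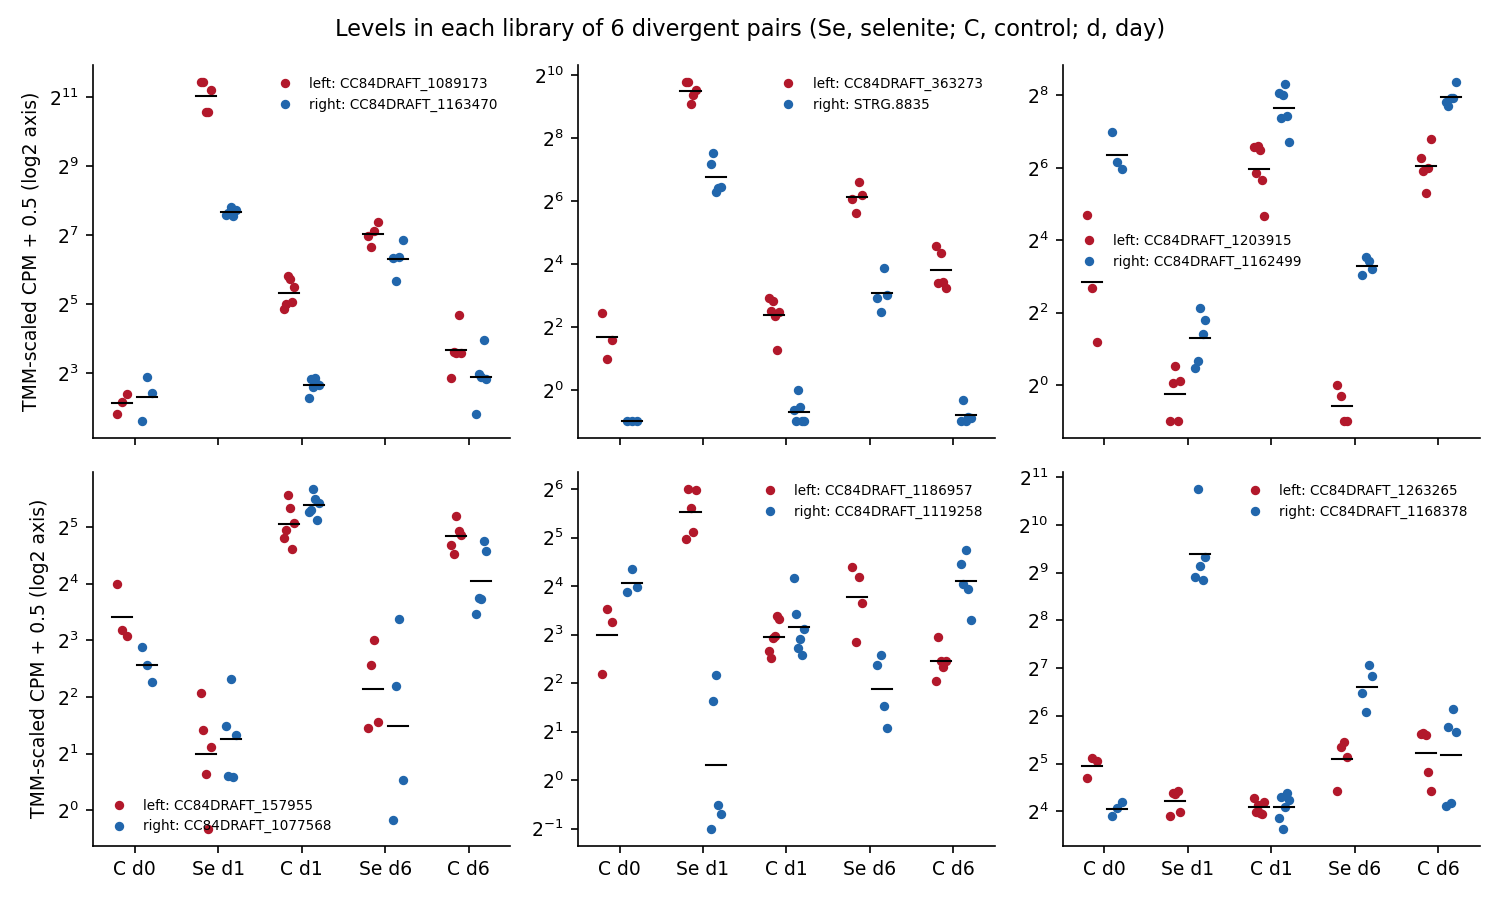
Scaled CPM + 0.5 (log2 axis) of the left and right gene in every library of 6 divergent pairs, by group. Points are libraries and black lines are means of the log2 values. In the upper row both genes move together with selenite at day 1. In the lower row 1 pair falls jointly, 1 is opposed and in the last 1 gene moves.

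Other pairs went apart across gaps just as short. CC84DRAFT_1186957 and CC84DRAFT_1119258 lie on NW_017253364.1, at 1231052 to 1232827 and 1233102 to 1234074, with a gap of 274 bases. CC84DRAFT_1186957 had 30.7, 63.8, 48.6, 34.1 and 63.1 scaled CPM in selenite cultures of day 1, against 5.19 to 9.93, with a median of 7.23, in controls, and its neighbour CC84DRAFT_1119258 had 0, 2.59, 3.96, 0.199 and 0.119 with selenite, against 5.48 to 17.5, with a median of 7.63, without. The left gene was higher in every selenite library and the right gene lower, with changes of 2.58 ± 0.29 (SE, adjusted p = 3.33e-08) and −2.84 ± 0.47 (SE, adjusted p = 1.06e-05). The opposition was there at day 6 as well, with 1.32 (adjusted p = 0.00168) and −2.21 (adjusted p = 0.00113). In CC84DRAFT_1164920 and CC84DRAFT_1093450 (gap of 186 bases) the left gene had 12.5, 8.39, 8.45, 10.7 and 7.13 scaled CPM with selenite, against 32.6 to 60.5, with a median of 42.9, without. The right gene had 426, 268, 190.3, 165 and 349 with selenite and 41.01 to 52.4, with a median of 47.3, without, and by the choice of pairs no library overlapped. The changes were −2.22 ± 0.24 (SE, adjusted p = 9.80e-09) and 2.49 ± 0.21 (SE, adjusted p = 1.58e-10), and at day 6 they were 0.69 (adjusted p = 0.0318) and 0.62 (adjusted p = 0.0302). Neither gene was called at day 6 without control replicates 1 and 3, at 0.45 (adjusted p = 0.217) and 0.60 (adjusted p = 0.0826). CC84DRAFT_1254397 and CC84DRAFT_1192373 are 35 bases apart and changed by 2.21 (adjusted p = 2.50e-09) and −2.27 (adjusted p = 6.68e-07).

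In the pairs with the largest change of ratio and a call in only 1 gene, 1 gene responded strongly and its neighbour was not called. CC84DRAFT_1263265 and CC84DRAFT_1168378 lie on NW_017253370.1, at 1359510 to 1361076 and 1361194 to 1362542, with a gap of 117 bases. CC84DRAFT_1168378 had 478, 1727, 558, 457 and 639 scaled CPM in selenite cultures of day 1, against 11.9 to 20.4, with a median of 17.4, in controls, a change of 5.30 ± 0.34 (SE, adjusted p = 9.59e-13). CC84DRAFT_1263265 had 14.5, 20.3, 19.97, 20.99 and 15.3 with selenite and 14.97 to 18.8, with a median of 16.1, without. Those groups overlapped, and the change was 0.13 ± 0.22 (SE, adjusted p = 0.628), or −0.27 with library size alone and 0.08 to 0.21 when 1 library was left out. The pair's ratio changed by 5.17 ± 0.43 (SE, adjusted p = 5.45e-11). In CC84DRAFT_1216113 and CC84DRAFT_1258301 (gap of 200 bases), CC84DRAFT_1258301 had 71.8, 116, 117, 82.3 and 108 scaled CPM with selenite and 5.32 to 19.9, with a median of 8.38, without, while CC84DRAFT_1216113 overlapped between the groups, 20.6 ± 8.55 with selenite against 25.5 ± 3.94 without (SD, n = 5 and 6). The changes were 3.42 (adjusted p = 9.14e-10) in CC84DRAFT_1258301 and −0.38 (adjusted p = 0.144) in CC84DRAFT_1216113, which was called without selenite replicate 5 of day 1 (−0.55, adjusted p = 0.0371; −0.23 without replicate 2) and with library size alone (−0.78, adjusted p = 0.0146). CC84DRAFT_1203231, 467 bases from CC84DRAFT_1194182, had 27.5, 20.5, 30.3, 20.99 and 19.6 scaled CPM with selenite and no read in 4 of the 6 controls. Its neighbour had 4.87 ± 3.02 scaled CPM with selenite, against 5.16 ± 2.47 without, with a change of −0.20 (adjusted p = 0.664), or 0.19 without selenite replicate 3 of day 1.

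After 6 days there was no such lean towards lower levels with TMM scaling. Of the 3210 members 815 rose and 611 fell at day 6, 44.4% called against a background of 48.6% (27.1% higher, 21.5% lower), and their median log2 change was 0.11, against 0.12 over genes of all pairs. With library size alone the split turned, to 624 higher and 769 lower, with a median of −0.05. Leaving out control replicates 1 and 3 of day 6 gave 593 higher and 479 lower. Per kb, the median member level was 12.5 scaled CPM with selenite and 12.2 in controls of day 6. Both genes were called in the same direction in 250 pairs (16.1%, background 16.4%), both higher in 151 (background 10.1%) and both lower in 99 (background 6.34%), and in opposite directions in 81 (5.22%, background 8.98%). With library size alone 97 pairs were both higher and 147 both lower. Where both genes were called, 75.5% of pairs went the same way, against 67.1% for tandem, 55.1% for convergent and 64.7% for all pairs. Without control replicates 1 and 3 of day 6, 162 pairs (10.5%) were called in the same direction and 43 (2.78%) in opposite directions, and the share of agreement was 79.0%, against 67.5% for all pairs. The ratio changed in 628 pairs (40.5%, background 48.2%), or in 29.7% without those 2 controls. Across pairs r was 0.37, or 0.36 ± 0.03 over single libraries (SD, n = 4). At 501 to 1000 bases r was 0.40 and the share of agreement 79.9%, so at day 6 the wider divergent pairs were not below the close ones.

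CC84DRAFT_1169946 and CC84DRAFT_426371, on NW_017253376.1, at 363848 to 365232 and 365692 to 366694, with a gap of 459 bases, rose at both days. CC84DRAFT_1169946 had 131, 63.7, 216 and 346 scaled CPM in the selenite libraries of day 6, against 0.497, 4.68, 1.39, 4.16 and 2.04 in controls, and CC84DRAFT_426371 had 3.13, 4.10, 7.14 and 7.47 with selenite, against 0.546, 0.498, 0.213, 0.998 and 0.717 without. The selenite libraries lay above the controls in both genes, with changes of 5.94 ± 0.42 (SE, adjusted p = 2.84e-11) and 2.41 ± 0.38 (SE, adjusted p = 9.74e-06). The ratio changed as well, by −3.53 ± 0.45 (SE, adjusted p = 4.58e-07). In CC84DRAFT_1083975 and CC84DRAFT_1161256 (gap of 441 bases) both rose alike at day 6, by 2.43 ± 0.36 (SE, adjusted p = 4.29e-06) and 2.50 ± 0.24 (SE, adjusted p = 5.40e-09).

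Among joint falls at day 6, CC84DRAFT_1144276 and CC84DRAFT_1163735 lie on NW_017253363.1, at 2731045 to 2732530 and 2732545 to 2734751, with a gap of 14 bases. CC84DRAFT_1144276 had 2.94, 3.70, 7.27 and 1.42 scaled CPM with selenite, against 85.7, 50.4, 116, 41.8 and 44.6 in controls. CC84DRAFT_1163735 had 10.5, 10.2, 8.29 and 7.18 with selenite and 261, 123, 222, 83.4 and 96.2 without. Control replicates 1 and 3 were the highest in both genes, and the other 3 controls still lay above every selenite library. The changes were −4.03 ± 0.67 (SE, adjusted p = 2.35e-05) and −3.91 ± 0.59 (SE, adjusted p = 5.34e-06), or −3.58 and −3.40 without those 2 controls. Their deviations from the group means over the 23 libraries had r = 0.85, or 0.84 without them. CC84DRAFT_1124993 and CC84DRAFT_1151148 (gap of 249 bases) had the same shape, with changes of −4.54 ± 0.72 (SE, adjusted p = 1.13e-05) and −4.77 ± 0.70 (SE, adjusted p = 4.29e-06), and their controls at day 1 already ranged over more than an order of magnitude, from 3.49 to 196 scaled CPM in CC84DRAFT_1124993.

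Opposite calls at day 6 held at very short gaps too. CC84DRAFT_1117906 and CC84DRAFT_1163658 are 16 bases apart. CC84DRAFT_1117906 had 31.8, 16.4, 21.4 and 20.7 scaled CPM with selenite, against 3.08, 3.49, 3.12, 4.60 and 7.62 without, and CC84DRAFT_1163658 had 6.45, 5.97, 4.83 and 7.31 with selenite, against 18.2, 18.8, 16.4, 26.05 and 22.6 without. The left gene was higher and the right lower in every selenite library, with changes of 2.28 ± 0.30 (SE, adjusted p = 1.05e-06) and −1.65 ± 0.35 (SE, adjusted p = 4.34e-04), and at day 1 of 2.22 (adjusted p = 1.23e-07) and −1.97 (adjusted p = 7.33e-06). CC84DRAFT_1126968 and CC84DRAFT_190244 (gap of 454 bases) were opposed at both days, with 3.74 (adjusted p = 5.54e-11) and −1.32 (adjusted p = 5.01e-05) at day 6. In CC84DRAFT_1220165 and CC84DRAFT_965887 (gap of 170 bases) the left gene fell to 0.959, 1.002, 0.624 and 0.526 scaled CPM with selenite, against 173, 112, 138, 72.9 and 53.4 in controls, while the right rose to 11.2, 22.8, 18.1 and 20.3 with selenite, against 3.73, 5.88, 5.66, 6.21 and 6.23 in controls. Their changes were −6.33 (adjusted p = 2.31e-08) and 1.60 (adjusted p = 8.40e-06).

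Large changes of ratio with only 1 gene called were also found at day 6. CC84DRAFT_1166419 had 44.7, 48.6, 48.2 and 11.4 scaled CPM with selenite, against 0.596, 1.64, 1.07, 0.277 and 2.33 without, a change of 4.47 ± 0.53 (SE, adjusted p = 1.75e-07). Its neighbour CC84DRAFT_1166417, 169 bases away, had 17.7, 12.7, 25.1 and 4.998 with selenite and 11.9, 9.31, 13.9, 6.76 and 9.35 without, with a change of 0.38 (adjusted p = 0.479). That change was 0.61 without control replicates 1 and 3 of day 6, 0.07 without selenite replicate 3 and 0.81 without selenite replicate 4 of that day. At day 1 the call was in the other gene, with a change of 2.80 (adjusted p = 5.08e-07) in CC84DRAFT_1166417 and of 1.08 (adjusted p = 0.0521) in CC84DRAFT_1166419. CC84DRAFT_1132384, which rose by 2.85 (adjusted p = 2.94e-08), lies 357 bases from STRG.9700, whose change was −0.83 (adjusted p = 0.0913). The change of STRG.9700 was −0.24 (adjusted p = 0.667) without control replicates 1 and 3 of day 6, −1.09 (adjusted p = 0.0251) without control replicate 5 and −1.07 (adjusted p = 0.0388) with DESeq2. At day 1 both genes of that pair had risen, by 2.01 (adjusted p = 3.01e-05) in STRG.9700 and 5.77 (adjusted p = 3.75e-15) in CC84DRAFT_1132384. CC84DRAFT_1152733 rose by 3.21 (adjusted p = 6.36e-10), 257 bases from CC84DRAFT_1167413, with −0.36 (adjusted p = 0.329), or −0.49 to −0.15 when 1 library was left out, and at day 1 these neighbours were opposed, at 4.86 (adjusted p = 1.39e-14) and −2.02 (adjusted p = 4.12e-07).

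The difference of the selenite change between days, day 6 minus day 1, was tested in the same fit. It was positive in 1054 members and negative in 425 (46.1% called, background 43.4%, with 22.7% positive and 20.7% negative), and the median difference was 0.38, against 0.00 over genes of all pairs. With DESeq2's size factors, which shift the median of all tested genes by −0.18, 821 were positive and 550 negative. With control replicates 1 and 3 of day 6 left out, 911 were positive and 352 negative. Both genes of a pair passed this test with the same sign in 290 pairs (18.7%, background 12.6%), 243 of them positive (background 6.67%) and 47 negative (background 5.91%), and with opposite signs in 73 (4.71%, background 7.1%). Where both passed, 79.9% had the same sign, against 71.0% of divergent pairs at gaps of 501 to 1000 bases, 66.1% at 1001 to 2000 bases and 63.9% of all pairs. With those 2 controls left out, 228 pairs had the same sign and 46 opposite signs. The ratio passed in 582 pairs (37.5%, background 41.9%). Over the 2 days, which have separate controls, 38 pairs were both higher at day 1 and again at day 6, 42 were both lower at each day, 7 turned to both higher after both lower, and 2 turned the other way.

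CC84DRAFT_1099478 and CC84DRAFT_1125864, on NW_017253368.1, at 151266 to 152157 and 152537 to 153714, with a gap of 379 bases, had the largest joint difference, and theirs was also the pair with the highest lower level per kb. CC84DRAFT_1099478 had 3120.4, 3621, 2293, 2602 and 2901 scaled CPM in selenite cultures of day 1, against 787 to 1201, with a median of 989.8, in controls of that day. At day 6 it had 116, 185, 139.5 and 175 with selenite, against 1625, 1784, 1992, 1405 and 737 without. CC84DRAFT_1125864 kept close to it, with 112, 159.7, 105 and 146 scaled CPM with selenite at day 6, against 1878, 1769, 2062, 1223 and 859 without. Both genes were higher with selenite at day 1, by 1.56 (adjusted p = 2.72e-06) and 0.96 (adjusted p = 6.47e-04), and lower at day 6, with changes of −3.24 ± 0.26 (SE, adjusted p = 2.72e-10) and −3.52 ± 0.25 (SE, adjusted p = 2.84e-11). The differences were −4.80 ± 0.35 (SE, adjusted p = 9.38e-10) and −4.49 ± 0.34 (SE, adjusted p = 1.27e-09), and the residuals of the genes within groups had r = 0.94. CC84DRAFT_1160395 and CC84DRAFT_430264, 102 bases apart, did the reverse: they were lower at day 1, with changes of −2.14 (adjusted p = 1.08e-05) and −2.72 (adjusted p = 8.90e-07), and higher at day 6, by 1.97 (adjusted p = 2.06e-04) and 1.53 (adjusted p = 0.00428). In CC84DRAFT_1084440 and CC84DRAFT_1084539 (gap of 266 bases) the differences had opposite signs, 2.26 (adjusted p = 6.60e-04) and −2.60 (adjusted p = 3.20e-04).

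Without selenite, fewer members were called over time, and pairs in which both genes changed nearly always moved in 1 direction. Controls of day 1 and of day 6 were each set against the same 3 controls of day 0, so these comparisons share libraries. At day 1, 398 members were higher and 378 lower than at day 0 (24.2% called, background 27.8%, with 15% higher and 12.8% lower). Both genes were called in the same direction in 113 pairs (7.29%, background 5.79%), 65 higher (background 3.25%) and 48 lower (background 2.55%), and in opposite directions in 10 (0.645%, background 2.75%), so 91.9% of pairs with both called went the same way, against 72.4% for tandem, 61.3% for convergent and 67.8% for all pairs. In divergent pairs further apart the share was 83.1% at 501 to 1000 and 85.9% at 1001 to 2000 bases. The ratio changed in 298 pairs (19.2%, background 26.4%), and r across pairs was 0.39. Library size alone moves the median of all genes by −0.40 here and gave 159 members higher and 1156 lower, 286 pairs in the same direction (18.4%) and 16 opposed. Leaving out any single control of day 0 left 69 to 72 pairs in the same direction.

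At day 6, 281 members were higher and 500 lower than at day 0 (24.3% called, background 21.1%, with 9.75% higher and 11.4% lower), whereas scaling by library size alone gave 482 higher and 202 lower. Both genes were called in the same direction in 127 pairs (8.19%, background 4.3%), 39 higher (background 1.65%) and 88 lower (background 2.65%), and in opposite directions in 17 (1.10%, background 1.25%). Where both were called, 88.2% of pairs went the same way, against 75.5% for tandem, 76.8% for convergent and 77.5% for all pairs. Wider divergent pairs were not below this, with 90.2% at 501 to 1000 and 93.1% at 1001 to 2000 bases. The ratio changed in 203 pairs (13.1%, background 15.1%), and r was 0.45. Without control replicates 1 and 3 of day 6, 330 members were called, 34 pairs were called in the same direction and 1 in opposite directions, and the ratio changed in 5.37% of pairs. Without control replicate 2 of day 0, 288 members and 25 pairs in the same direction were called, and without replicate 3, 279 members and 28 pairs.

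**Figure D5:**
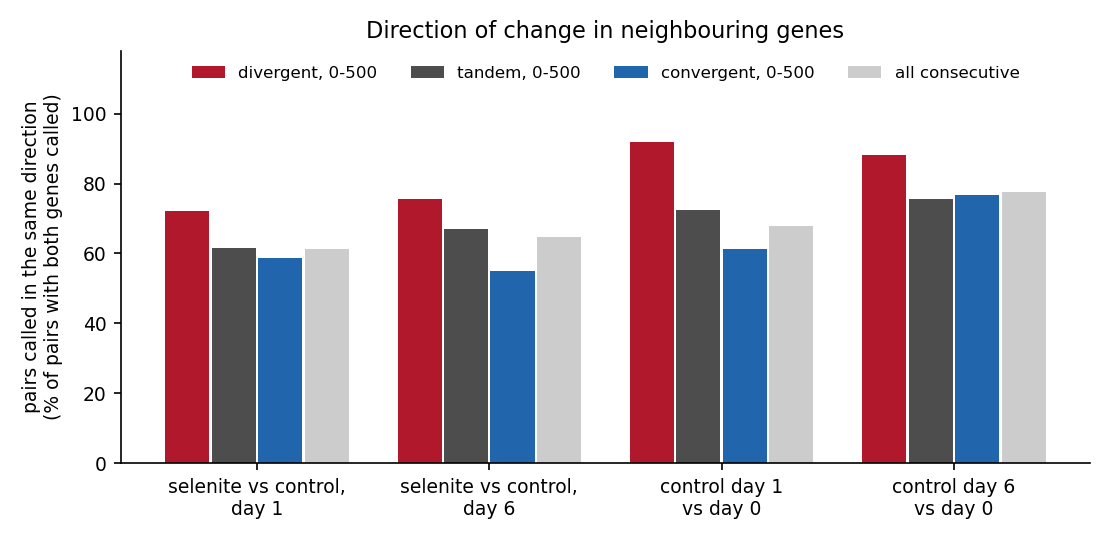
Percentage of pairs called in the same direction among pairs with both genes called, in 4 comparisons, for divergent, tandem and convergent pairs with gaps of 0 to 500 bases and for all consecutive pairs. The divergent bars are the highest in each comparison, from 72.1% with selenite at day 1 to 91.9% in controls of day 1.

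CC84DRAFT_1180339 and STRG.8302, on NW_017253371.1, at 86589 to 87170 and 87497 to 90004, with a gap of 326 bases, rose most in controls of day 1. CC84DRAFT_1180339 had 55137 to 89218, with a median of 64027, scaled CPM at day 1, against 1097, 1684 and 1685 at day 0. STRG.8302 had 34.2 to 85.5, with a median of 63.8, at day 1, against 1.71, 2.55 and 6.05 at day 0. All controls of day 1 lay above those of day 0 in both genes, by 5.54 ± 1.16 (SE, adjusted p = 7.63e-04) and 4.12 ± 0.71 (SE, adjusted p = 9.73e-05). In controls of day 6 the replicates 1 and 3 held 585 and 1764 scaled CPM of CC84DRAFT_1180339, and the other 3 held 25865 to 52950.2. The residuals of the 2 genes within groups had r = 0.94, or 0.75 without these 2 controls, although over the 5 groups CC84DRAFT_1180339 averaged 102629 scaled CPM per kb and STRG.8302 12.4. With selenite at day 1 CC84DRAFT_1180339 had 205487, 225084, 143116, 134069.7 and 184548 scaled CPM, above every control. Its change was 1.36 ± 0.99 (SE, adjusted p = 0.239), and that of STRG.8302 was −0.67 ± 0.60 (SE, adjusted p = 0.348). In this fit the spread was shared over all 5 groups. The ratio of the pair changed by −2.03 ± 0.30 (SE, adjusted p = 1.6e-06). In the authors' deposited table for day 1 the changes were 1.46 (their adjusted p = 3.58e-05) and −0.63 (their adjusted p = 0.0150). CC84DRAFT_1261094 and CC84DRAFT_1166211 (gap of 395 bases) fell in controls of day 1, with changes of −2.30 (adjusted p = 1.43e-05) and −1.46 (adjusted p = 1.14e-04).

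CC84DRAFT_1167077 and CC84DRAFT_972825, on NW_017253368.1, at 59580 to 60110 and 60514 to 61641, with a gap of 403 bases, fell in controls of day 6. CC84DRAFT_1167077 had 47.9, 681, 905, 688 and 168 scaled CPM at day 6, against 1363, 17322 and 20516 at day 0, and CC84DRAFT_972825 had 58.5, 166, 180.3, 177 and 87.7 at day 6, against 235, 1344 and 1364 at day 0. Control replicate 1 of day 0 was far below the other 2 in both genes, yet above every library of day 6. The changes were −4.61 ± 0.77 (SE, adjusted p = 2.71e-04) and −2.62 ± 0.42 (SE, adjusted p = 1.73e-04). CC84DRAFT_1144276 and CC84DRAFT_1163735, named above, rose in controls of day 6, by 2.31 (adjusted p = 0.0271) and 2.65 (adjusted p = 0.0049). The call of CC84DRAFT_1144276 was lost without control replicates 1 and 3 of day 6 (1.86, adjusted p = 0.149). It was also lost with a pseudocount of 0.1, with edgeR and in 4 fits that left out 1 library. Of the few opposed pairs, CC84DRAFT_453402 and CC84DRAFT_453359 abut with a gap of 0 bases and changed by 1.62 (adjusted p = 0.00816) and −1.03 (adjusted p = 0.00412) at day 6, and both fell with selenite at day 6, with changes of −4.50 (adjusted p = 7.50e-10) and −2.35 (adjusted p = 4.23e-09). The call of CC84DRAFT_453402 at day 6 relative to day 0 was lost without control replicates 1 and 3 of day 6 (1.22, adjusted p = 0.0813), without control replicate 2 of day 0 (1.42, adjusted p = 0.0683) or replicate 3 (1.46, adjusted p = 0.0632). It was also lost with a pseudocount of 0.1 (adjusted p = 0.0733), with edgeR (adjusted p = 0.129) and with DESeq2 (adjusted p = 0.0510). The call of CC84DRAFT_453359 was lost with library size alone (−0.74, adjusted p = 0.0535). CC84DRAFT_1159942 and CC84DRAFT_1201604 (gap of 120 bases) were opposed in controls of day 1, with 0.83 (adjusted p = 0.0103) and −0.97 (adjusted p = 0.0167), and both calls were lost without control replicate 1 of day 0 (0.64, adjusted p = 0.0917, and −0.81, adjusted p = 0.0993), that of CC84DRAFT_1159942 also with library size alone (0.31, adjusted p = 0.333).

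Among replicates of a group, where treatment and time are the same, the 2 genes of a divergent pair also varied together to some degree. The median over 1551 pairs of the correlation of their residuals across the 23 libraries was 0.19 (quartiles −0.02 and 0.41), and it was positive in 72.8% of pairs. It was 0.12 for tandem, 0.03 for convergent and 0.09 for all pairs. Within single groups the median ran from 0.11 in selenite cultures of day 1 and 0.38 in those of day 6 to 0.34 in controls of day 1, 0.26 in controls of day 6 and 0.31 at day 0. Without control replicates 1 and 3 the median over all groups was 0.20, and within the controls of day 6 it was 0.19. With library size alone the median was 0.30 for divergent and 0.17 for all pairs. Over divergent pairs it was 0.21 at gaps of 0 to 100 bases, 0.19 at 101 to 200, 0.23 at 201 to 300, 0.19 at 301 to 400, 0.12 at 401 to 500, 0.13 at 501 to 1000, 0.16 at 1001 to 2000 and 0.07 at gaps over 2000 bases. Neither these medians nor co-direction of calls with selenite at day 1 fell steadily with the gap. The shares of pairs with both genes called that went the same way at day 1 were 76.3%, 75.5%, 70.6%, 57.1% and 75.3% in the 5 ranges within the limit, and 64.9% at 501 to 1000 bases.

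Abutting gene models did not all behave alike. CC84DRAFT_453402 and CC84DRAFT_453359, named above, both fell with selenite at day 1, with changes of −3.165 (adjusted p = 1.79e-08) and −1.176 (adjusted p = 1.47e-05). In CC84DRAFT_1164084 and CC84DRAFT_1145085, which abut with 0 bases between them, the left gene rose at day 1 by 0.75 (adjusted p = 4.17e-04) and the change of the right was 0.30 (adjusted p = 0.119). The change of their ratio was not called (−0.45, adjusted p = 0.0826). CC84DRAFT_156139 and CC84DRAFT_156147 also abut, and at day 1 the left gene had 124, 107, 92, 87.2 and 117 scaled CPM with selenite, against 36.5 to 49.1, with a median of 41.99, without. The right gene had 1.98, 11.3, 4.44, 9.05 and 8.02 with selenite and 12.9 to 20.9, with a median of 16.1, without, so no library of either gene overlapped and the directions were opposed. The changes were 1.31 ± 0.20 (SE, adjusted p = 3.15e-06) and −1.37 ± 0.30 (SE, adjusted p = 2.71e-04). Levels also differed across short gaps. Averaged over the 5 groups, CC84DRAFT_1142762 stood at 4.30 scaled CPM per kb and CC84DRAFT_1185911, 192 bases away, at 1597. The genes CC84DRAFT_635322 and CC84DRAFT_635293 (gap of 486 bases) differed likewise, and CC84DRAFT_1149190 and CC84DRAFT_1123023 (gap of 180 bases) stood at 1448 and 11.7. In controls of day 1 relative to day 0, CC84DRAFT_1185911 rose by 4.62 (adjusted p = 2.04e-06), while the change of CC84DRAFT_1142762 was −0.61 (adjusted p = 0.166).

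In the pairs with the highest level of their lower gene, CC84DRAFT_1099478 and CC84DRAFT_1125864 above changed most with selenite, and the other 2 pairs changed by less than 1 on the log2 scale at either day. CC84DRAFT_1156946 and CC84DRAFT_1169303, 314 bases apart, averaged 1497 and 1103 scaled CPM per kb. Their selenite changes at day 1 were −0.07 (adjusted p = 0.766) and −0.21 (adjusted p = 0.315), and at day 6 0.01 (adjusted p = 0.984) and 0.02 (adjusted p = 0.941), or −0.14 and −0.18 without control replicates 1 and 3. Both rose in controls of day 1 relative to day 0, by 1.08 (adjusted p = 3.63e-04) and 1.48 (adjusted p = 8.65e-06), and their deviations within groups had r = 0.91. In CC84DRAFT_1158798 and CC84DRAFT_1253727 (gap of 153 bases), at 925 and 2769.7 scaled CPM per kb, the changes with selenite at day 1 were −0.15 (adjusted p = 0.506) and 0.94 (adjusted p = 3.20e-04).

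Just inside the limit, CC84DRAFT_1160558 and CC84DRAFT_436098 have a gap of 500 bases. CC84DRAFT_1160558 had too few reads to be tested. CC84DRAFT_436098 had no read in the 5 selenite libraries of day 1, against 2.07 ± 1.58 scaled CPM in controls (SD, n = 6), and at day 6 it had 0.0260 ± 0.0520 with selenite (n = 4), against 11.7 ± 5.61 without (n = 5). Just outside, CC84DRAFT_1136370 and CC84DRAFT_1212529 have 501, and CC84DRAFT_1212529 was not tested. Counts on either side of the limit were close. Of 184 tested pairs with gaps of 401 to 500 bases, 55 were called in the same direction at day 1 and 18 in opposite directions, and of 200 with gaps of 501 to 600 bases, 49 were called in the same direction and 14 in opposite directions.

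In the authors' deposited table for day 1, which holds both genes of 1353 divergent pairs, 354 pairs passed their adjusted p in the same direction and 148 in opposite directions, 70.5% in the same direction against 61.6% of all pairs. Divergent pairs of that table had 67.7% at gaps of 501 to 1000 and 70.1% at 1001 to 2000 bases. In the authors' deposited table for day 6 the counts were 232 and 66 of 1476 pairs, 77.9% against 64.6%, and there the wider divergent pairs had 78.5% at 501 to 1000 and 70.2% at 1001 to 2000 bases. In the authors' deposited table of the time course, 1184 members were listed (35.2%, against 30.4% of all genes), with both genes in 250 pairs. In 90 of these 250 pairs both genes were in the same of the authors' 9 clusters (36%), against 19.3% for tandem, 14.4% for convergent and 22.6% for all pairs. In that table the share was 29.9% for divergent pairs at 501 to 1000 bases and 32% at 1001 to 2000. In the authors' deposited grouping into 5 clusters it was 46.4% for members, 45.4% and 44% for those wider divergent pairs and 37.7% for all pairs.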

How the data were processed

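Whole-culture RNA was read in 23 libraries from a stranded messenger RNA kit, per the labels' protocols, and all libraries carry the same batch. The submitters' processing notes name edgeR 3.36.0, R 4.1.0, featureCounts with Subread 2.0.6, the aligner STAR 2.7.1a and Trimmomatic 0.39. Per the file headers, featureCounts counted by strand and took the mates of a read pair singly. Apart from the RefSeq table of the assembly Parsp1, the sources used here name no genome build. The authors deposited CPM per gene and library. The 23 per-sample columns of the deposited count table were not used. Positions, strands and exon lengths came from that table. Reads were recovered from the steps of the CPM values: 100% of 348772 values were whole reads within 1e-06. The authors' deposited tables also hold log2 fold changes, p-values and F scores per comparison, and cluster numbers for a time course.

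CPM values were divided by TMM factors of edgeR 4.0.16 (0.557 to 1.61). Genes were kept by filterByExpr (at least 10 reads, and 15 in total), and log2(scaled CPM + 0.5) was fitted with limma 3.58.1 in R 4.3.3 over all 23 libraries, with 5 group means, an intensity trend and no covariate. The ratio of 2 neighbours was fitted the same way over 12572 consecutive pairs. Tests were two-sided, with Benjamini-Hochberg adjustment over all 13676 genes or all pairs. With 0.5 scaled CPM added, the log2 change understates the change of low genes. The count test on the recovered reads, with edgeR's quasi-likelihood test, called 629 member genes higher and 1303 lower at day 1, and 4005 higher and 4265 lower over genes of all consecutive pairs. A count of 3 reads was worth 0.0918 to 0.129 CPM. No pair of replicates was near identical. The scripts were tested on simulated data for the selenite comparison of day 1. They called 38% of 100 genes changed 2-fold and 84% of 100 changed 4-fold. Only these genes were changed among the 13438 tested there, and all were drawn from genes with a mean over 100 reads. In the data 62.5% of all tested genes were called at day 1. The ratio was called in 40.8% of 363 pairs with 1 changed gene. False calls were 8.27% of gene calls and 8.54% of ratio calls. These rates belong to that setting, with few changed genes, and need not hold for the data. A gene or ratio that was not called may still have changed.

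The pairs, lists and tests were chosen with earlier results of these data known. The named pairs were, among those with a mean of at least 5 scaled CPM in a compared group, the 3 both higher, 3 both lower and 3 opposite with the largest smaller change and no overlap of libraries in either gene, and the 3 with the largest change of ratio and 1 gene called, for each selenite comparison. For each control comparison the first of each of the first 3 kinds was taken, and for the difference between days the first 2 of each sign pattern. To these were added the pairs with the shortest gap, the highest level, the largest ratio of levels and the gap nearest the limit. The count of members called lower and the member median minus that of all genes were added after the data were seen. Alternatives were other scalings, pseudocounts, filters and gap limits, edgeR, DESeq2 1.42.0, a replicate block and leaving out libraries. Sequence of the gaps was not analysed here.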

Additional observations from a re-analysis of the deposited data

Results flagged for a closer look

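Of 146 groups of 4 to 10 libraries of the named genes and summaries, 14 had a library that stood apart by Dixon's criterion, which chance gives in about 1 of 20 groups. Some selenite groups had a single high library. CC84DRAFT_1168378 reached 1727 scaled CPM and CC84DRAFT_1254397 80.1 in selenite replicate 2 of day 1, and CC84DRAFT_1124993 and its neighbour CC84DRAFT_1151148 reached 15.4 and 11.3 together in selenite replicate 1 of day 6. CC84DRAFT_1166419 was low, at 11.4 scaled CPM, in selenite replicate 4 of day 6. Among controls of day 1, STRG.8835 stood at 0.493 scaled CPM in replicate 3, CC84DRAFT_1203231 at 0.811 in replicate 2, and CC84DRAFT_1258301 at 19.9 and CC84DRAFT_1166417 at 6.23 in replicate 1. Among controls of day 6, CC84DRAFT_1089173 stood at 24.97 scaled CPM in replicate 4, CC84DRAFT_1162499 at 332 in replicate 5 and CC84DRAFT_965887 at 3.73 in replicate 1. Control replicate 1 of day 1 also had the lowest share of reads in member genes of its group, 22.9%, and its member median minus that of all genes, relative to day 0, was −0.12.

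The selenite change differed between day 6 and day 1 in both genes of 14 of the 25 named pairs checked, by limma's test of the difference at an adjusted p under 0.05. The smaller of the 2 log2 differences, day 6 minus day 1, was −3.59 for CC84DRAFT_363273 and STRG.8835, −1.60 for CC84DRAFT_1089173 and CC84DRAFT_1163470, and −2.63 for CC84DRAFT_1139283 and CC84DRAFT_1237463, which were higher with selenite at day 1. It was 2.81 for CC84DRAFT_1160432 and CC84DRAFT_1110443, which were lower at day 1, and 1.48 for CC84DRAFT_1083975 and CC84DRAFT_1161256. It was −4.49 for CC84DRAFT_1099478 and CC84DRAFT_1125864, 4.10 for CC84DRAFT_1160395 and CC84DRAFT_430264, and −2.84 for STRG.9700 and CC84DRAFT_1132384. In the other 6 pairs the genes differed with opposite signs. The smaller difference was −1.87 for CC84DRAFT_1164920 and CC84DRAFT_1093450, 0.88 for CC84DRAFT_1216113 and CC84DRAFT_1258301, and 1.34 for CC84DRAFT_1220165 and CC84DRAFT_965887. It was −2.42 for CC84DRAFT_1166417 and CC84DRAFT_1166419, −1.65 for CC84DRAFT_1167413 and CC84DRAFT_1152733, and 2.26 for CC84DRAFT_1084440 and CC84DRAFT_1084539. Pairs chosen for their difference between days are among these, so the count describes the named pairs only.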

How the results depend on the processing

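Reported counts are given here as percentages of tested members, and the cause of each change was not tested. Library size alone turned the balance of higher and lower calls at day 6 (624 and 769 members, 97 and 147 pairs, member median −0.05) and in day 6 controls (482 and 202 members, 86 and 25 pairs, median 0.20, against −0.04 with TMM). In day 1 controls, near even with TMM, it gave 159 and 1156, DESeq2's factors 370 and 414, and the block 379 and 381. Among named genes 2 turned, given below. Library size alone moved the control comparison of day 1 to 41% of members called, 18.4% of pairs in the same direction and 1.03% opposed, opposed pairs of day 6 controls to 0.387%, and the member median minus that of all genes at day 1 to −0.35. That difference, a result added after seeing the data, was −0.23 with a pseudocount of 2 or gaps up to 1000 bases, −0.20 for genes of 5 CPM or more, −0.34 with edgeR and −0.38 for gaps up to 250 bases. For genes of 5 CPM or more, r was 0.358 with selenite at day 1, 0.401 at day 6 and 0.458 in day 1 controls, opposed pairs were 1.05% and 1.81% in day 1 and day 6 controls, and ratio changes 20.7% at day 6. r was 0.301 at day 1, and 0.284 and 0.335 in controls, with edgeR, 0.334 at day 6, and 0.292 and 0.343 in controls, with DESeq2, and 0.289 at day 1 and 0.361 in day 1 controls for gaps up to 1000 bases. Without control replicates 1 and 3 of day 6, same-direction pairs were 10.5% and opposed pairs 2.78% with selenite at day 6, opposed differences between days 2.98%, and day 6 controls had 10.3% of members, 2.20% same, 0.0647% opposed and 5.37% ratio calls. Leaving out 1 library gave, for day 1, day 6 and their difference, members called 59.3% to 62.2%, 37.3% to 45.9% and 41% to 49.7%, same-direction pairs 26.6% to 29.5%, 12.1% to 17.1% and 15.6% to 21.8%, opposed pairs 9.87% to 11.2%, 3.69% to 5.61% and 3.18% to 5.43%, and ratio changes 53.9% to 57.2%, 33.6% to 41.5% and 32.9% to 40%. For day 1 and day 6 controls it gave 17.4% to 25.7% and 8.63% to 27.4% of members, 4.39% to 7.76% and 1.59% to 9.43% same, 0.387% to 0.840% and 0% to 1.36% opposed, 12.8% to 20.2% and 3.88% to 15.6% ratio changes, and r of 0.378 to 0.399 and 0.420 to 0.449. With selenite r was 0.319 to 0.340 at day 1 and 0.354 to 0.377 at day 6, members called lower at day 1 were 39.7% to 41.8%, and the median difference −0.33 to −0.29. The lowest day 6 control counts came without control replicate 2 or 3 of day 0. CC84DRAFT_1263265 at day 1 was −0.27 with library size alone, and CC84DRAFT_1194182 0.11 with DESeq2 and −0.45 to 0.19 when 1 library was left out, the highest without selenite replicate 3 of day 1. The correlation of libraries of the same number was −0.02 to 0.02 at day 1, −0.01 to 0.09 at day 6, 0.02 to 0.33 for day 1 and day 0 controls and −0.21 to 0.33 for day 6 and day 0 controls, highest for replicate 1. No comparison had every number above 0.1, so numbers were not taken to pair libraries; a replicate block gave 1.68% of pairs opposed in day 6 controls and moved no other count by over 1.5 times.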
